A study of Mus musculus with 20 samples.

Results

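The serum small RNA libraries of 20 female mice were searched together by the depositors for hairpins that miRBase, the miRNA registry, did not hold. All 536 entries in the section of the resulting miRDeep2 report for hairpins outside miRBase are described here as candidates, out of 1085 hairpins that it scored, the other 549 being miRBase hairpins. No further threshold chose them, but the section holds only hairpins with a miRDeep2 score of at least 0. The authors' deposited table counts 536 at that cut-off and 651 at -1. Ames dwarf mice are a long-lived line that lacks growth hormone, prolactin and thyroid-stimulating hormone. The 20 libraries came from 5 normal mice of 5 to 6 months, 5 normal mice of 21 to 22 months, 5 Ames dwarf mice of 5 to 6 months and 5 Ames dwarf mice of 21 to 22 months. The labels give the same strain, Ames dwarf on a heterogeneous genetic background, to all 20, the normal mice included, and name no treatment and no allele. The report pools the 20 libraries, so a candidate has 1 read number and no value per mouse, genotype or age.

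A miRNA is cut from the stem of a hairpin transcript: Dicer leaves a short duplex of the mature strand and a star strand from the opposite arm, and the star strand is usually degraded while the mature strand is loaded into an Argonaute protein. miRDeep2 looks in the genome for places where stacked reads lie on 1 arm of a possible hairpin. It gives each hairpin a log-odds score that rises with star reads, a stable fold and a seed shared with a known miRNA. The score can also rise with the number of reads, as the values further on show. The seed, the stretch near the 5′ end of the mature strand, pairs with target mRNAs. Fragments of tRNAs, rRNAs and small nucleolar RNAs also circulate in serum, and can map to places that fold.

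These candidates are shown first as examples of the highest scores, the largest read numbers and the classes described further on. Each is written 5′ to 3′ as the hairpin, with the mature strand in capitals, and positions are on GRCm38 (mm10).
chr14_21850, chr14:61543639-61543698, plus strand, opposite an intron: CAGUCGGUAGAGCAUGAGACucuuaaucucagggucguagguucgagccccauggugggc
chr5_7288, chr5:5627693-5627751, plus strand, opposite an intron: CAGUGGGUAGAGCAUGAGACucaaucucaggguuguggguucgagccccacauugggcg
chr7_12149, chr7:97265053-97265096, minus strand, opposite an intron: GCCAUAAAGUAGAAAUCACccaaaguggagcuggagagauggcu
chr9_14710, chr9:113756832-113756880, plus strand, an intron of Clasp2: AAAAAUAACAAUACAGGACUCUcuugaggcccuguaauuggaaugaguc
chr2_2441, chr2:84741117-84741179, plus strand, opposite the gene Mir130a: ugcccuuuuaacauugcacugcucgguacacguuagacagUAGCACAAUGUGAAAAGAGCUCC
chr10_16586, chr10:75614842-75614888, minus strand, opposite a coding exon: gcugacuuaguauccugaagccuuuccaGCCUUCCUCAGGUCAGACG
chr15_23159, chr15:100025666-100025733, plus strand, no gene on either strand: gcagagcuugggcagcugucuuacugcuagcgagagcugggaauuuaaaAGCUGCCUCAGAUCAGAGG
chr1_76, chr1:20504553-20504616, plus strand, opposite an intron: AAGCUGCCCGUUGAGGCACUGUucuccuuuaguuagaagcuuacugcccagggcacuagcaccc
chr4_6012, chr4:123293214-123293277, plus strand, an intron of Pabpc4: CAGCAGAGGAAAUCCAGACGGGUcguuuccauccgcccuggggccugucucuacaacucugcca
chr1_803, chr1:164217678-164217740, plus strand, an intron of F5: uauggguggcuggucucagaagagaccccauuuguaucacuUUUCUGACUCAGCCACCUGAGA
chr13_21153, chr13:44444346-44444400, minus strand, an intron of Gm27007: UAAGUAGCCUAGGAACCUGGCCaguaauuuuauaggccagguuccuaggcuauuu

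The libraries held 1343137 to 4710263 miRNA counts each, with each miRNA name counted once. The red cell miRNA miR-486a-5p took 16.9% to 33.3% of the counts of a library, and miR-451a, another, 0.657% to 6.29%. The myeloid and platelet miRNA miR-223-3p took 0.0205% to 0.0678%. A further red cell miRNA, miR-144-3p, took 0.0164% to 0.0791%, and miR-16-5p, abundant in red cells, took 2.47% to 8.75%. Their part in the candidates was not tested.

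Most candidates scored low and rested on few reads. Scores ran from 0 to 38957.2 with a median of 1.5. The total reads of a candidate ran from 2 to 76420 with a median of 20 (95% interval of the median, from binomial order statistics, 17 to 24). Of the 536, 143 had under 10 reads, 108 had at least 100 and 23 at least 1000. Over the 500 distinct mature sequences the candidates held 222150 reads, of which chr14_21850 alone took 34.4% and the first 5 took 64.3%. All candidates scored at least 0, so they are set beside the 436 of the 549 miRBase hairpins that did too, which held 33662076 reads over their distinct mature sequences.

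The authors' deposited table gives, for each score cut-off, how many candidates were reported and how many false positives the program estimated. At a cut-off of 10 it lists 29 candidates against 7 ± 3 estimated false positives. The cut-off of 5 gave the highest estimated share of true positives in the authors' deposited table, 86 ± 4% of 79 candidates. In the authors' deposited table the estimate at 4 was 42 ± 7 false positives among 116 candidates. For the cut-offs of 3, 2 and 0 the estimate in the authors' deposited table passed the number reported, with 168 ± 13 against 145 at 3 and 654 ± 22 against 536 at 0. At 1 the authors' deposited table has 313 ± 15 against 378. The survey thus sets the whole list against more estimated false positives than it has members, and sets the 29 highest-scoring candidates against few.

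**Figure D1:**
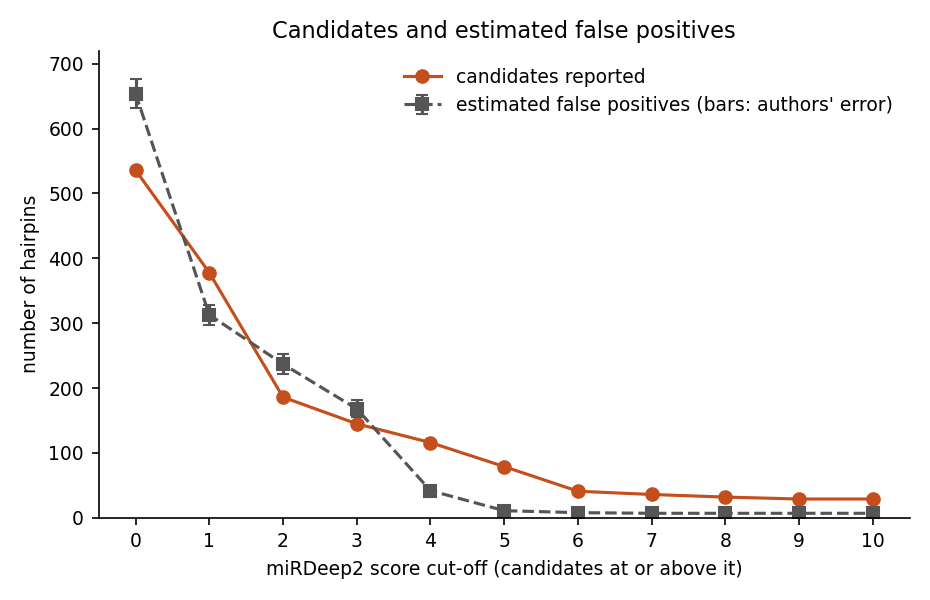
Number of candidates at or above each miRDeep2 score cut-off (circles) and the program's estimated number of false positives (squares, bars the authors' error), from the authors' deposited table. The 2 lines cross: 116 candidates stand above 42 estimated false positives at a cut-off of 4, and 536 stand below 654 at 0.

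Star reads, the trace of the second strand of the Dicer duplex, were scarce. At least 1 star read was counted for 96 candidates, 17.9% (exact Clopper-Pearson 95% interval 14.8 to 21.4), and at least 3 for 39, 7.28% (5.22 to 9.81). Of the 96, 43 rested on 1 star read and 14 on 2. Among the 436 miRBase hairpins 318, or 72.9% (68.5 to 77.1), had a star read. Hairpins share loci and are not replicates of a condition, so the 2 sets are given side by side with no test. The intervals of shares and medians over hairpins treat hairpins as independent draws, although some share loci or mature strands. The interval of a single candidate's star share, given further on, is over its reads. Reads amplified without molecular identifiers are not independent molecules, so that interval covers counting error only.

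More reads did not go with more star support among the listed candidates. Both sets hold only hairpins with a score of at least 0, and the score rises with star reads. The shares by range may therefore depend on that cut-off. Of candidates with 1 to 9 reads 25.2% (18.3 to 33.1) had a star read, of those with 10 to 99 reads 15.1% (11.1 to 19.8), of those with 100 to under 1000 reads 16.5% (9.31 to 26.1) and of those with at least 1000 reads 13% (2.78 to 33.6). The miRBase hairpins in the same ranges of reads stood at 55.6%, 57.9%, 75.7% and 84.7%. No test was run between the sets, since hairpins share loci. For 1 to 9 reads the miRBase interval, 35.3 to 74.5 over 27 hairpins, began just above the end of that of the candidates. Only 3 of the 23 candidates with at least 1000 reads had a star read, and 2 of those 3 carried an alert for rRNA or tRNA.

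**Figure D2:**
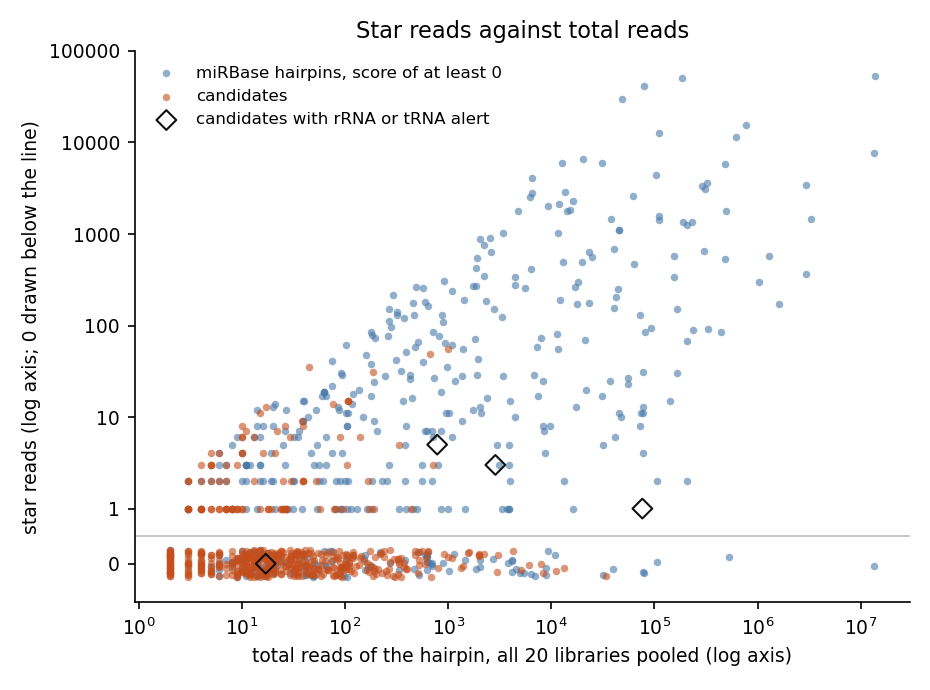
Star reads against total reads for each candidate (orange) and each miRBase hairpin with a score of at least 0 (blue), both axes log, hairpins without a star read drawn below the line with random vertical spread. The 4 candidates with an rRNA or tRNA alert are diamonds. The candidate with 76420 reads had 1 star read, and 20 of the 23 candidates with at least 1000 reads had none.

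**Figure D3:**
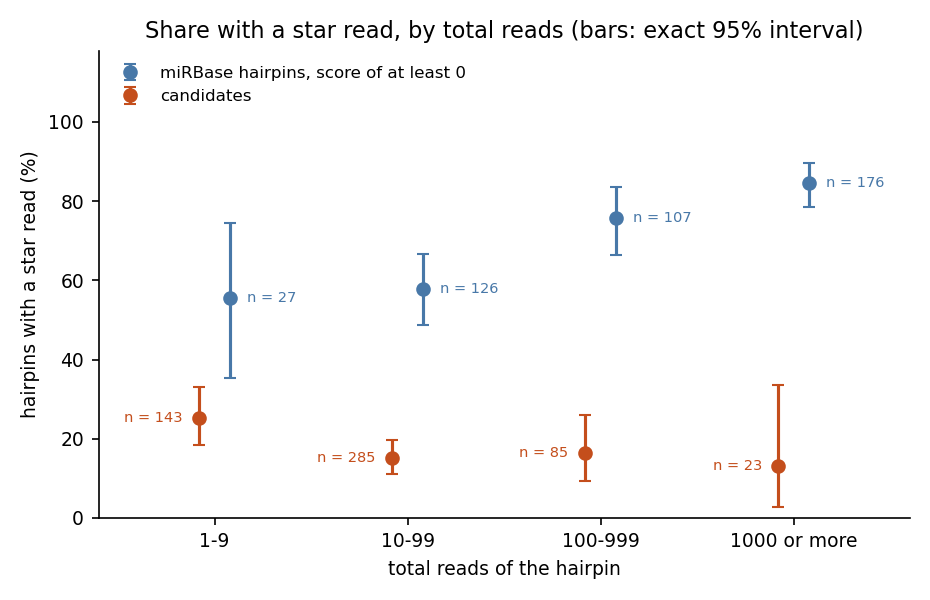
Share of hairpins with at least 1 star read by total reads, candidates in orange and miRBase hairpins with a score of at least 0 in blue, bars the exact 95% interval and n the hairpins in the range. The candidates stay between 13% and 25.2% while the miRBase hairpins run from 55.6% to 84.7%.

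Star reads and seed matches are both terms of the score. Read number also went with high scores among candidates with star reads, though not in all. With 1 star read each, chr14_21850 had 76420 reads and scored 38957.2, chr10_16222 had 432 and 217.9, and chr17_24994 had 190 and 0.9. chr10_15542 had 35 star reads among 45 reads and scored 1.7. Star reads were commoner in each higher range of score, while seed matches were commonest from 4 to under 10. All 29 candidates with a score of at least 10 had a star read, against 25 of the 87 scoring from 4 to under 10, 36 of the 262 from 1 to under 4 and 6 of the 158 under 1. The 62 candidates that reached 4 without a star read all had a seed that the file matches to a named miRNA. A match was named for 60.1% of candidates scoring under 1, 51.1% of those from 1 to under 4, 83.9% of those from 4 to under 10 and 27.6%, 8 candidates, of the 29 scoring at least 10. Over all candidates 310 had one, 57.8% (53.5 to 62.1), beside 71.8% (67.3 to 76.0) of the miRBase hairpins. The fold was judged more stable than shuffled sequence by randfold for 75.9% (72.1 to 79.5) of candidates and 88.1% (84.7 to 91.0) of miRBase hairpins. It was so judged for 51.7% of the 29 highest-scoring candidates. At the score of 10 stood chr6_9636, in an intron of March8, a ubiquitin ligase, with 4 mature and 7 star reads, and the nearest below, at 8.9, was chr10_16026 with 23 mature reads and 1 star read. Several candidates stood at the score of 1, of which chr11_17874 had the most reads, 7947. Of several just under it, at 0.9, chr2_2781 had the most, 561.

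The mature strands were shorter than those of the miRBase hairpins. A length of 18 bases, the shortest listed in either set, was the commonest among candidates, with 156 or 29.1% (25.3 to 33.2), and was listed for 3.21% (1.77 to 5.33) of miRBase hairpins. Lengths of 21 to 23 bases, usual for Dicer products, were listed for 34.5% (30.5 to 38.7) of candidates and 76.4% (72.1 to 80.3) of miRBase hairpins. Among the 29 candidates with a score of at least 10 that share was 69% (49.2 to 84.7). The mature strand began with U, the base that Argonaute proteins favour, in 34.1% (30.1 to 38.3) of candidates and 49.8% (45 to 54.6) of miRBase hairpins, and with G in 20.1% and 9.17%. Median GC content of the mature strand was 57.9% in candidates and 47.8% in miRBase hairpins.

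**Figure D4:**
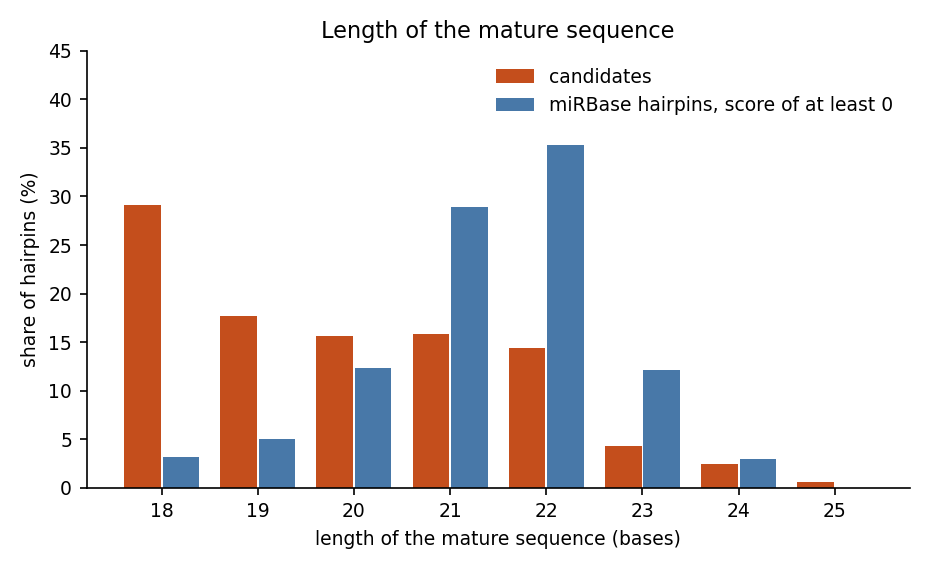
Length of the mature strand in bases against the share of hairpins in percent, for the 536 candidates (orange) and the 436 miRBase hairpins with a score of at least 0 (blue). Candidates peak at 18 bases with 29.1%, miRBase hairpins at 22 bases with 35.3%.

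Median hairpin length differed by 1 base, 59 (58 to 60) in candidates and 60 (59 to 60) in miRBase hairpins, but candidates spread further. They ran from 33 bases, in chr11_17477 and chr7_11872, to 100 in chr3_4338. Under 50 bases were 107 candidates, 20% (16.7 to 23.6), beside 1.38% of miRBase hairpins, and at least 70 bases were 87, 16.2% (13.2 to 19.6), beside 7.80%. Star reads were listed for 80 of the 342 candidates of 50 to 69 bases, 23.4% (19 to 28.2), for 9 of the 107 shorter ones, 8.41% (3.92 to 15.4), and for 7 of the 87 longer ones, 8.05% (3.30 to 15.9). The arm showed no such contrast, with 46.8% of candidates and 47.9% of miRBase hairpins carrying the mature strand on the 5′ arm. RNAfold gave a median folding energy of -0.39 kcal/mol per base (-0.40 to -0.38) in candidates and -0.41 (-0.42 to -0.40) in miRBase hairpins.

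Candidates lay on every autosome and on X, 277 on the plus and 259 on the minus strand. Chromosome 11 held the most, 54 or 10.1%, followed by chromosome 5 with 41 and chromosomes 4 and 7 with 40 each. Chromosome X held 10, 1.87%, none of them with a star read or a score of at least 4, while 9.40% of miRBase hairpins lay there. Chromosome 12, which holds a large imprinted miRNA cluster, held 3.36% of candidates and 11.7% of miRBase hairpins. Scores of at least 10 were spread over 16 chromosomes, with 4 each on chromosomes 2 and 7. On their own strand 183 candidates lay in introns, 57 in exons at a UTR, 40 in coding exons and 26 in exons of noncoding transcripts, by GENCODE M21. Another 107 had a gene only on the other strand and 123 had none on either. Star reads were listed for 48 of the 183 intronic candidates and for 24 of the 230 with no gene on their strand.

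The file marks 4 candidates, 0.746% (0.204 to 1.90), as similar to rRNA or tRNA, and none of the miRBase hairpins. chr14_21850 had 76417 mature reads, 2 loop reads and 1 star read, a star share of 0.00131% (Wilson 95% interval 0.000231 to 0.00741), and the highest score, 38957.2. chr5_7288, with 2864 mature and 3 star reads, had the next, 1457.8. Both carry the rRNA/tRNA mark. chr9_14710, marked rRNA, had 777 mature and 5 star reads and a score of 393.6, and chr11_18779, marked rRNA/tRNA and lying in an intron of Plcd3, a phospholipase C, had 17 reads, no star read and a score of 1.2. So 3 of the 4 highest scores belong to marked candidates.

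No candidate overlapped a tRNA or rRNA gene of RefSeq. The B box, an internal promoter element of tRNA genes, was searched by its core, GGUUCGA, on both strands of each hairpin, a search chosen after the sequences were seen. It was found in 3 of 536 candidates (0.560%), chr14_21850, chr5_7288 and the unmarked chr2_3592, always on the hairpin's own strand, and in 0 of the 436 miRBase hairpins. The mature strand of chr14_21850 has close copies in 3 other candidates, of which the file marks chr5_7288 and not chrX_28833 or chr7_11433. They are shown with the seed, bases 2 to 8, in capitals because they hold 3 of the 23 candidates with at least 1000 reads besides it.
chr14_21850: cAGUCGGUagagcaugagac
chr5_7288: cAGUGGGUagagcaugagac
chrX_28833: cAGUAGGUagagcaugagac
chr7_11433: cAGUCGGUagagcaugggac
chrX_28833 had 5042 reads and chr7_11433 had 4226, neither with a star read, and they scored 0.6 and 1.3. With near-identical mature strands, the 4 thus ranged in score from 0.6 to 38957.2, and those without star reads scored lowest. chr14_21850 had more reads and fewer star reads than chr5_7288, and the higher score.

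Many candidates resembled one another. Mature strands were linked where they differed by at most 3 bases over at least 16 aligned bases, and linked strands were chained into groups. This gave 12 groups of at least 3 sequences, with 152 candidates. The largest chained 77 sequences of 79 candidates on 20 chromosomes and had 66570 reads, 30.0% of those of all candidates. Only 1 of its 79 members, chr8_13779 with 80 mature reads and 1 star read, had a star read, none was marked as rRNA or tRNA, and 44 were 18 bases long. Its members had 4 to 33778 reads with a median of 81. The members with most reads, and the commonest base at each position with those shared by at least 80% of members in capitals, read as follows.
chr10_16586: gCCUUCCUcaggucagacg
chr15_23159: aGCUGCCUcagaucagagg
chr5_8108: aUCUCCCUccucuccgccg
group, commonest bases: cgCucCCUCagcUCAGcCu
chr10_16586 had 33778 reads and a score of 0.5, and chr15_23159 had 13285 reads and 1.1. Of all candidates, only chr14_21850 had more reads than these 2. With at most 2 differing bases the largest group held 11 sequences, so the group of 77 is a chain of partly like strands, not a set of copies.

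The second group, 14 candidates on 9 chromosomes, had the commonest bases GgGgaUGUAGCUCAGUgGu, 10 to 2003 reads and no star read, and it includes the marked chr11_18779. Its first members by reads, chr1_753 and chr1_754, are 1 hairpin listed 2 times. All 14 had miR-5106 as their nearest RefSeq miRNA, but none lay within 2 differing bases of it. A nearest miRNA was assigned at any distance. The third, 13 candidates on 9 chromosomes, had the commonest bases gGggcUGGAGcGAUGGCU, 29 to 332 reads and 3 members with a star read, and all 13 had miR-3473b as their nearest. Together 66 candidates shared 30 mature sequences exactly, so reads of these loci cannot be told apart by sequence. For example, chr11_18926, chr8_12701 and chr3_4221, in exons of the noncoding genes Gm8624, Gm10689 and Rps23-ps1, each listed the same 92 mature and 15 star reads.

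Some candidates resembled known miRNAs, and the origin of these candidates was not tested. Within 2 unmatched bases of a RefSeq mature strand, and away from its gene, lay 36 candidates, near 25 miRNAs. An unmatched base is a substitution or a base of the candidate beyond the end of the miRNA. The nearest miRNAs had a median of 24538 reads summed over the 20 samples, and 27 of the 36 candidates had a miRNA with at least 10000 such reads. Of equally near miRNAs the one with most reads was taken. The share of all miRNAs with so many reads is not given here. The candidates' mature reads were a median of 0.230% of those of the miRNA, and under 1% for 28 of the 36. Star reads were listed for 6 of them, and their mature strands had a median length of 19 bases. These pairs are shown because their differences are few. Substitutions give the miRNA's base, its position counted from the miRNA's 5′ end, and the candidate's base, and capitals mark the seed.
chr16_24401: cUUUGCACuugucucugucu
miR-25-3p: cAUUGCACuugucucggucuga
chr1_1467: aCCAGCAUuguaaagggcu
miR-103-3p: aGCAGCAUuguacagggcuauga
chr10_15800: uAGAAGCAcguaaauauug
miR-16-5p: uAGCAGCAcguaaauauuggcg
chr1_76: aAGCUGCCcguugaggcacugu
miR-22-3p: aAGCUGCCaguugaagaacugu
chr8_12646: cAAAGGCAuuccaaaagcagcug
miR-191-5p: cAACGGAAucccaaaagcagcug
chr16_24401 (chr16:12920375-12920440, minus strand, an intron of the transcript gene 4930414F18Rik) differed from miR-25-3p by A2U and G16U, and its 1398 mature reads were 0.108% of the 1298345 of that miRNA. chr1_1467 differed from miR-103-3p, and likewise from its close relative miR-107-3p, by G2C and C13A, with 1320 reads, 1.70% of 77728, and had a score of 0. chr10_15800 differed from miR-16-5p by C4A alone, with 120 reads beside 2947261.

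Candidates just outside that limit included some of the most read. chr1_76 differed from miR-22-3p, a miRNA with 3293848 reads, by A9C, A15G and A17C, so the seeds are the same, and had 8285 reads, 0.252% of that number, with no star read. chr8_12646 differed from miR-191-5p, with 1042993 reads, by C4A, A7C and C10U and had 1085 reads. chr7_11952 had 6020 reads and 4 unmatched bases to miR-142a-5p, a blood cell miRNA with 750980 reads. Of the 23 candidates with at least 1000 reads, 7, or 30.4% (13.2 to 52.9), had a RefSeq miRNA within 4 unmatched bases. Of all 536, which include those 23, 93 had one, 17.4% (14.2 to 20.8). The 2 shares are not independent, and no test was run between them. For 6 of the 7 at least 1 such miRNA had at least 10000 reads, again without the share of all miRNAs beside it. This wider search was run after the values were seen.

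chr7_12149, with a score of 505.7, had the most star reads of any candidate, 56 beside 950 mature reads, a star share of 5.57% (4.31 to 7.16). Its mature strand differs from miR-142a-5p, aligned over 17 bases, by G14U and has 2 further bases at its 5′ end. It differs from miR-3969 by C3A with 1 further base. Its 950 mature reads were 0.127% of those of miR-142a-5p and 3.46% of the 27475 of miR-3969. Its hairpin of 44 bases is short, with a folding energy of -9.4 kcal/mol and 12 of the 19 mature bases paired. The arm opposite its mature strand, printed above, ends in bases close to the commonest ones of the third group of like strands. Whether its star reads came from this hairpin or from such other loci was not tested.

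Small nucleolar RNA genes held a large part of the well-scored candidates. These RNAs, snoRNAs and the scaRNAs of Cajal bodies, guide the chemical modification of other RNAs, and some are cut further into miRNA-sized pieces. On such a gene, on the same strand, lay 17 candidates, 3.17% (1.86 to 5.03) of all but 9 of the 29 with a score of at least 10. A star read was listed for 10 of the 17, 58.8% (32.9 to 81.6), and none carried a mark. Of the 9, 3 share 1 mature strand and its reads. The mature strands of those with star reads are given because most of them are among the 29 highest scores.
chr4_6012, Gm22154: cAGCAGAGgaaauccagacgggu
chr6_10428, Snora7a: uGAUUGGAagacacucugcaaca
chr7_11415, Snora30: cAGCUGUUacucaagggaaca
chr11_18085, Gm24313: uGUGACUCcugagcucuguuc
chr13_21176, Gm24620: uGUCUCUAcaacucugcca
chr7_10764, AF357399: uAGCACUUguauggguuuuugu
chr4_6715, Scarna8: aCUGCCUUuugaugaccagggc
chr17_24926, Snora64: aCUCUCUCacucugcaugguu
chr4_6012, in an intron of Pabpc4, which encodes a poly(A)-binding protein, had 156 mature and 31 star reads and a score of 90.6. Its star share was 16.6% (11.9 to 22.6), beside 7.39% (5.64 to 9.64) in chr2_2441. chr6_10428, where Snora7a lies in the ribosomal protein gene Rpl32, had 171 mature reads and 1 star read, and chr7_11415, where Snora30 lies in an intron of the chromatin remodeller Srcap, had 163 and 2. The mature strand of chr13_21176 stands whole in the hairpin of chr4_6012, on the arm opposite to the mature strand there. These are 2 snoRNA genes on different chromosomes, so the star reads of one and the mature reads of the other cannot be told apart by sequence. The strand uGUGACUCcugagcucuguuc was listed for 4 candidates on 4 snoRNA genes, chr11_18085, chr8_13383, chr8_13385 and chr8_13381. The first 3 had the same 37 mature and 2 star reads and scored 19.2 to 20.7, and chr8_13381 had the 37 mature reads, no star read and a score of 0.4.

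The snoRNA candidates with most reads were not those with star reads. chr11_17874, on Snord104, had 7944 mature reads, 3 loop reads and no star read, with a score of 1. chr6_10171, on Gm22486 in an intron of Ptcd3, had 1584 reads, no star read and a score of 1.3. Both stood far above the 26 to 187 reads of the 10 with a star read.

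Opposite a miRNA gene, on the other strand of the same hairpin, lay 11 candidates, and 9 of them are described. chr2_2441, opposite Mir130a, whose miRNA acts in blood vessel growth, had 614 mature and 49 star reads and a score of 338.6. It overlapped the miRBase hairpin by 60 of its 63 bases, and its 663 reads were 0.847% of the 78260 on that hairpin. chr12_20138, opposite Mir203, had 127 reads, 1.71% of 7433 and all of them mature. chr9_15431, opposite Mir191, had 41 reads, 0.00393% of 1043287. chr6_9166 and chr6_9168, opposite Mir182 and Mir183 of the sensory miRNA cluster, had 14 reads each. chr8_12962, opposite Mir1199, had 6 reads, 1 of them star, beside 20 on the known strand. chr6_9942, chr9_14272 and chr15_22914, opposite Mir335, Mir34b and Mir151, had 11, 4 and 2. Apart from the first 2, these candidates thus had 2 to 41 reads. All 11 in the class were judged stable by randfold. The class was chosen by lying opposite miRNA hairpins, whose complement can itself fold, so this is no separate support. A mature strand of 21 to 23 bases was listed for 10 of the 11. No candidate lay on the same strand as a miRBase hairpin of the report within its span, and 17 candidates, 3.17%, lay within 10 kb of one on either strand, the nearest that did not overlap being chr11_17270, 332 bases away from miR-3061 in a UTR exon of the phosphatase subunit gene Ppp2ca.

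On miRNA genes that RefSeq holds, on the same strand, lay 7 candidates, none of whose miRNA names appears in the count table. They were found by position, and all 7 had mature strands of 21 to 23 bases, 5 had a star read and 5 began with U. Mature strands that match the RefSeq one without a difference are shown for 4 of them.
chr1_803, miR-12178-3p: uUUCUGACucagccaccugaga
chr7_10617, miR-12202-3p: uCUUCUCUuuccagucaucag
chr12_20138, miR-203b-3p: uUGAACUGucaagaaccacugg
chr6_10346, miR-12201-3p: uCUGCAGAggcuuccuuggcu
chr1_803, in an intron of F5, which encodes coagulation factor V, had 102 mature and 3 star reads and a score of 54.2. chr12_20138 had 127 reads and a score of 5.4. The other 5 had 5 to 10 reads each. chr15_23694, in an intron of Arfgap3, had 6 mature and 4 star reads on the gene of miR-12186, chr5_8544 had 8 and 1 on that of miR-12199, chr7_10617 had 6 and 1, chr6_10346, in an intron of the transcription factor gene Foxp1, had 7 and 1, and chr3_5004, in an intron of Nbea, had 5 mature reads on the gene of miR-12194.

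At the 3′ end of an intron, within 3 bases of the splice site, lay 22 candidates, and 4 lay at the 5′ end. A mirtron is a hairpin whose ends are made by splicing in place of Drosha, at one end or both, and no candidate reached both ends of an intron. The 22 had 2 to 93 reads with a median of 8.5, 19 had a mature strand of 21 to 23 bases, 15 began with U and 6 had a star read. chr6_9266, in the adhesion gene Zyx, had 4 mature and 6 star reads and a score of 5.9. chr4_6719, in the lipid droplet gene Plin2, had 6 and 1 and the highest score of the class, 7.6. chr7_11920, in the splicing gene Snrnp70, had the most reads, 93, and no star read. None of the 22 reached a score of 10.

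**Figure D5:**
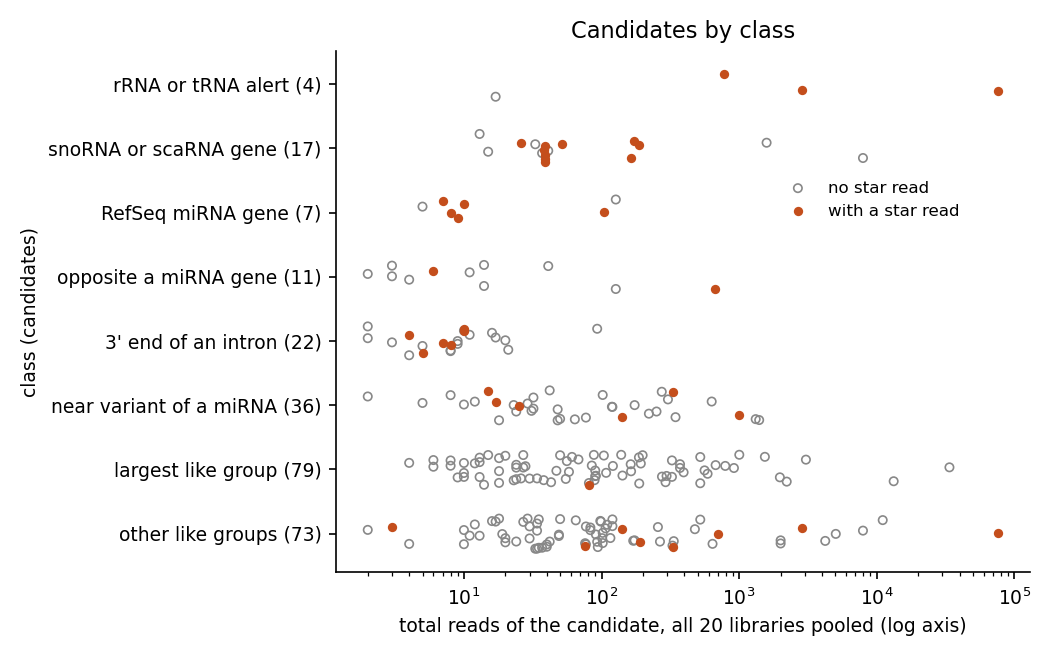
Total reads of each candidate (log axis) by class, with the number of candidates in parentheses; filled points have at least 1 star read, open points none, vertical position within a class is random, and a candidate may stand in more than 1 class. Of the 79 in the largest group of like sequences 1 is filled, and of the 17 on snoRNA or scaRNA genes 10 are.

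None of these classes took 295 candidates, 55.0%. They had 2 to 8285 reads with a median of 13, 59 of them, 20% (15.6 to 25), had a star read, and 11 had a score of at least 10. chr13_21153, in an intron of Gm27007, had 94 mature reads and 1 star read and a score of 53.7, and its stem, printed above, pairs 21 of its 22 mature bases. chr2_2736, in an intron of Shld1, a DNA repair gene, had 23 mature and 6 star reads and 18.5. chr10_15542, in an intron of the folate enzyme gene Mthfd1l, had 10 mature and 35 star reads, a star number below only those of chr7_12149 and chr2_2441, but a score of 1.7. Over all 536, the star reads of 15 candidates, with 3 to 45 reads each, outnumbered the mature reads. chr10_16222, in a UTR exon of Baz2a with the mature strand gGAGGAGGcgccgccgcc, had 431 mature reads and 1 star read and a score of 217.9. In a group of 4 like strands, chr3_4338, with the mature strand cGCGCGGGuggggccggggg in a hairpin of 100 bases, had 637 mature, 65 loop and 3 star reads, the only candidate among the 10 highest scores with more loop than star reads apart from chr14_21850.

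At the other end, 3 of the candidates scored 0 with more than 1000 reads. chr10_16019, in an intron of the sulfotransferase gene Chst11 with the mature strand gCCUGUCUgagcgucucu, had 11059 reads. chr4_7231, in an intron that Camta1 and Per3 share, had 2960, and chr1_1467, the near copy of miR-103-3p, had 1320. None had a star read.

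Values per sample exist only for a miRNA that has the sequence of 1 candidate, which was singled out after its values were seen. They belong to that miRNA and cannot be assigned to the candidate's locus. chr7_10999 (chr7:65121805-65121883, plus strand), with the mature strand aCUGCAGAgugagacccug, 78 reads, no star read and a score of 5, has the sequence of miR-1954, which the count table holds from another locus. In young normal mice miR-1954 had counts of 0 to 12 with a median of 3, in old normal mice 0 to 6 with a median of 1, in young dwarf mice 1 to 5 with a median of 3 and in old dwarf mice 0 to 6 with a median of 3. The counts of the 4 groups overlapped, and no test between them was run.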

How the data were processed

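The candidates and lists were chosen with earlier results of these data known. Small RNA was prepared from serum with a TruSeq kit, per the labels' protocols. The submitters' processing notes list GRCm38 (mm10), Bowtie 0.12.8, bedtools and edgeR and assign no role to any. The pooled miRDeep2 report was deposited by the authors with a score, read numbers (counts per hairpin over all samples, not normalized) and consensus sequences, per the file headers. Its version, read filters and mapping settings are not given in the sources used here. Counts per miRNA and sample were deposited by the authors as whole numbers, and gave depth.

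Starts were converted to count from 1. RefSeq hairpins matched 373 of 549 miRBase hairpins by sequence, all 373 at the same position. Genes came from GENCODE M21, miRNAs from RefSeq (GRCm38). Hairpins were folded with RNAfold 2.7.2 at 37 degrees. Shares have exact Clopper-Pearson and star shares Wilson 95% intervals. The code was tested on simulated data. Candidates were named by a rule: the highest by score (10), total reads (5) and star reads (5), alerts (up to 3 of each kind), the 10 nearest within 10 kb of a miRBase hairpin, the first 5 groups sharing a mature strand, the 3 lowest scores and the neighbours of scores 1 and 10; not all are printed, and others are examples of a class. Of candidates tied at the lowest or a neighbouring score, those with most reads were named. Chromosome 18 is not described. No group comparison was made.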

Additional observations from a re-analysis of the deposited data

How the results depend on the processing

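With scores of at least 1, 4 and 10, the share with a star read was 23.8%, 46.6% and 100%, and with at least 3 star reads asked for it was 7.28%; the score itself uses star reads. Moving from all candidates to scores of at least 4 and of at least 10 gave 2.59% and 10.3% for alerts, 69.8% and 27.6% for seed matches, 82.8% and 51.7% for randfold, 5.17% and 6.90% for a miRBase hairpin within 10 kb, and a median mature share of reads of 99.96% and 94.9%. At a score of at least 10, 48.3% began with U. Candidates with at least 100 reads gave 2.78% for alerts, 49.1% for seed matches, 20.4% for a first U, 63.9% for randfold and 1.85% for a near miRBase hairpin. Median folding energy per base was -0.40 at scores of at least 1, -0.37 at 10, -0.35 with at least 100 reads and -0.49 folded at 25 degrees. Within 50 kb of a miRBase hairpin lay 6.16%. The cause of the moves with score and reads was not tested. Median hairpin length kept within its interval throughout, and leaving out the alerts or keeping 1 entry per mature strand moved none of the shares and medians.

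Added after the data were seen: near variants of a miRNA were 6.72% of candidates, 0.560% with at most 1 unmatched base and 9.33% with at most 3; groups of like strands held 28.4%, and 14.7% at 2 differing bases; snoRNA genes held 3.17%, and 8.62% and 31.0% at scores of at least 4 and 10. No paired analysis was possible because the report pools the samples, and for the same reason no replicate could be left out.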
